A study of Mus musculus with 7 samples.

Results

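Malat1, Neat1, Tug1, Pvt1, Mir17hg and Dleu2 are genes of long noncoding RNAs, several of which are kept in the nucleus or are cut there into precursors of small RNAs. The 6 genes were taken by name from the 22556 genes of the count files, and all 6 passed the filter on low counts of every test. Their RNA was measured in the chromatin fraction of female mouse embryonic stem cells by ChrRNA-seq, in which nuclei are lysed and the RNA that stays with the chromatin pellet is sequenced. All cells were Dom/129S x Cast hybrids, from domesticus (129S) and castaneus mice, kept undifferentiated and given 1 µg/mL doxycycline for 10 days to drive Xist from a TetOn promoter. The promoter sits at Xist on the Dom/129S X in iXist-ChrX-Dom (4 libraries, the Dom line) and on the Cast X in iXist-ChrX-Cast (3 libraries, the Cast line). Each line is a clone, so a difference between the lines cannot be told apart from a difference between clones. Uninduced cells were not analysed here, so the values are levels after induction and not responses to it.

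Malat1 RNA gathers in nuclear speckles, bodies rich in splicing factors, and Neat1 RNA is the scaffold of paraspeckles, bodies that hold RNA-binding proteins such as NONO and SFPQ. Tug1 is a spliced RNA, and Pvt1 is a long gene downstream of the growth regulator Myc. Mir17hg and Dleu2 are host genes: Drosha cuts hairpins out of their nascent transcripts, and the hairpins become microRNAs (miRNAs) that repress messenger RNAs matching their seed, bases 2 to 8. The miR-17-92 miRNAs of Mir17hg are known for promoting proliferation, and miR-15a and miR-16 of Dleu2 for restraining it.

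The mature miRNAs of the host genes show what the counted transcripts can give rise to. Of the 6 genes, 2 host mature miRNAs listed by RefSeq (GRCm38.p6), 11 within the GENCODE span of Mir17hg and 4 in Dleu2. The 8 below, 1 arm of each hairpin, carry 5 different seeds, which are in capitals. The miRNAs miR-17-5p (chr14:115043684-115043706, plus strand) and miR-20a-5p (chr14:115044183-115044205) share a seed that differs from that of miR-18a-5p (chr14:115043867-115043889). The seed of miR-19a-3p (chr14:115044048-115044070) is also that of miR-19b-3p (chr14:115044358-115044380), while miR-92a-3p (chr14:115044476-115044496) has its own. Both miRNAs of Dleu2, miR-15a-5p (chr14:61632075-61632096, minus strand) and miR-16-5p (chr14:61631936-61631957), have 1 seed in common.
mmu-miR-17-5p: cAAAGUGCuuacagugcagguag
mmu-miR-20a-5p: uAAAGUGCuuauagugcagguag
mmu-miR-18a-5p: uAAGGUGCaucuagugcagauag
mmu-miR-19a-3p: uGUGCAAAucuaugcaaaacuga
mmu-miR-19b-3p: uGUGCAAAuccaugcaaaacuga
mmu-miR-92a-3p: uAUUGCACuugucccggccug
mmu-miR-15a-5p: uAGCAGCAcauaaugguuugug
mmu-miR-16-5p: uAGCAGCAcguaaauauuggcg
The files count fragments of the host transcripts and hold no measure of these mature miRNAs.

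For Mir17hg the counted window lies mostly downstream of the miRNAs. It runs from 115044389 to 115046728 on chromosome 14 (mm10), 60.8% of the GENCODE gene of 3849 bp. It covers 100% of the RefSeq gene, which starts at 115044390. Inside this window lie 2 of the 11 mature miRNAs. Of the 6 hairpins, 4 lie before it, 3 bases of the miR-19b-1 hairpin reach into it, and the miR-92a-1 hairpin is inside. The 300 bases around the RefSeq start of Mir17hg (chr14:115044140-115044439, plus strand) show this edge, with miR-20a-5p, miR-20a-3p, miR-19b-1-5p and miR-19b-3p in capitals and the last 51 bases inside the counted window.
Mir17hg start: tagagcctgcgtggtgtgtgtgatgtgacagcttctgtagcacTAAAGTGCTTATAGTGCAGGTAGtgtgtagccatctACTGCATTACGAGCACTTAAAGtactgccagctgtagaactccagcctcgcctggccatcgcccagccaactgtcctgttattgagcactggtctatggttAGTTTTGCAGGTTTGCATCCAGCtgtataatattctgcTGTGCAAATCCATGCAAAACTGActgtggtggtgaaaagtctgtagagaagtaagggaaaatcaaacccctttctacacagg
Values of Mir17hg therefore describe the 3′ side of the primary transcript.

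**Figure D1:**
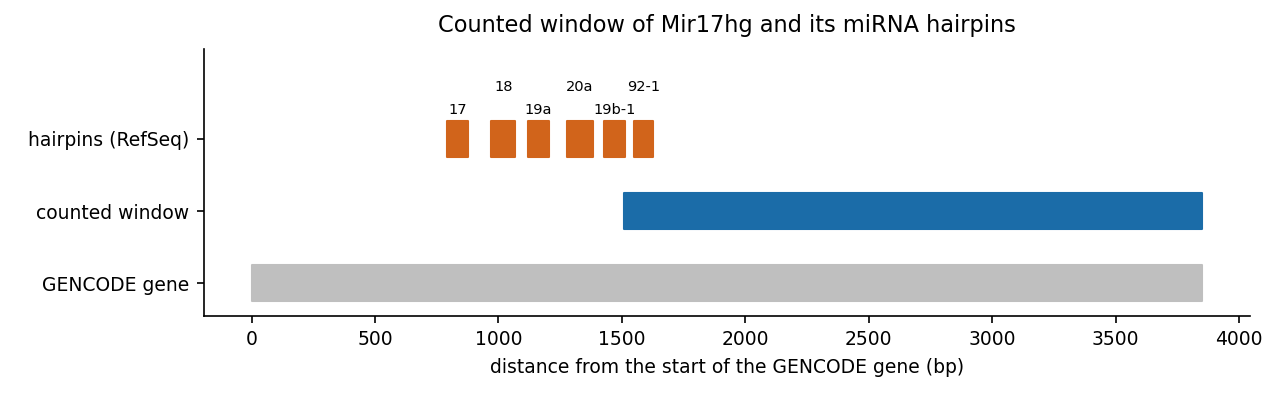
The GENCODE gene of Mir17hg (grey), the window counted in the files (blue) and the RefSeq hairpins of miR-17 to miR-92-1 (orange), drawn to scale against the distance in bp from the start of the GENCODE gene. Of the 6 hairpins, 4 end before the counted window begins.

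The other genes differed in how much of them was counted. Malat1 (chr19:5795689-5802671, minus strand) and Tug1 (chr11:3639784-3648814, minus) were counted over 100% and 91.3% of their GENCODE spans. Neat1 (chr19:5842301-5845478, minus) was counted over 15.3%, the 5′ part that its short and long transcripts share, so the isoforms cannot be separated. Pvt1 (chr15:62037986-62250975, plus) covered 62.6% and Dleu2 (chr14:61602835-61682373, minus) 100% of the span, but exons made up 2.02% and 14.2% of those windows. Counts of Pvt1 and Dleu2 are thus mostly of intronic length. No counted gene overlapped a member on its own strand, and counting used strand. Opposite-strand genes overlapped Pvt1 (H2afy3, 0 or 1 fragments a library) and Dleu2 (Trim13, 498 to 740, and Kcnrg, 46 to 88).

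Libraries held 14877384 to 24309806 counted fragments, of which 44.2% to 46.4% could be assigned to a parental genome. By their naming, the files fall into 2 sets: replicates 1 and 2 of each line, and Dom-line replicates 3 and 4 with Cast-line replicate 3. They are called the sample sets here; a batch is not stated by the labels. In their descriptions, Dom-line replicates 3 and 4 carry d1, whereas 10 days is in the titles and treatment fields and was followed. For Cast-line replicates 1 and 2 the clone reads C8H8 in the file names but C7H8 in the labels. The study speaks of replicate experiments, and whether each was a separate culture is not stated in the sources used here, so p-values measure only the spread between these libraries, which may be technical. The cells had been grown on mouse fibroblast feeders, removed by pre-plating. Summed levels were 1407 to 1828 CPM (counts scaled to a common library size by TMM) for 9 pluripotency markers and 71.5 to 95.8 CPM for 11 fibroblast markers, none of which was at 0 in every library.

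Per length, Malat1 was far above the other members. It reached 840.6, 733.6, 1096 and 1018 CPM per kb in Dom-line replicates 1 to 4 and 923.7, 923.6 and 984.3 in Cast-line replicates 1 to 3. Only the RNA components of RNase P (Rpph1) and RNase MRP (Rmrp) were higher among the 15186 genes tested, and by CPM Malat1 ranked first. Mir17hg averaged 82.2 CPM per kb over the 7 libraries (rank 37), Tug1 30.3 (rank 167) and Neat1 25.2 (rank 209). Pvt1 averaged 3.23 (rank 2592) and Dleu2 2.61 (rank 3301), so 82.9% and 78.3% of genes were lower. Per kb, the description as abundant RNAs held for the first 4 genes more than for Pvt1 and Dleu2, whose windows are mostly intron. Whole transcripts were counted, so the counted length of other genes includes their introns. The windows of Malat1, Mir17hg, Tug1 and Neat1 were 98.3% to 100% exon. How far their ranks per kb rest on this was not tested. By CPM, without division by length, the order was another: Pvt1 ranked 162, Tug1 815, Dleu2 1186, Mir17hg 1302 and Neat1 3078.

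The order of the levels was tested between neighbours within each library by an exact sign-flip permutation test over 7 libraries (two-sided, 5 pairs, smallest possible p = 0.01562). Malat1 stood 11.6-fold above Mir17hg, Mir17hg 2.66-fold above Tug1, and Neat1 7.52-fold above Pvt1, each in 7 of 7 libraries (exact p = 0.01562, Benjamini-Hochberg adjusted 0.0260). Tug1 and Neat1 did not differ beyond their spread, with a mean log2 difference of 0.33 that ranged from -0.51 to 1.03 (exact p = 0.2188). Nor did Pvt1 and Dleu2, at 0.32 with a range of -0.40 to 1.00 (exact p = 0.1719, adjusted 0.2148). The ranking and so the direction of each step came from the same 7 libraries, so these tests describe how steadily a step held and are not independent of the ranking. Without division by length, Mir17hg stood below Tug1 (log2 -0.54) and Neat1 below Pvt1 (-3.16). With single libraries left out no pair passed the adjusted threshold. For Malat1 to Mir17hg, Mir17hg to Tug1 and Neat1 to Pvt1 the exact adjusted p was 0.0521 whichever library was left out. With the other pairs as they were, that is the smallest value these steps can reach with a library fewer. These refits therefore could not pass the threshold and do not show a less steady order.

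**Figure D2:**
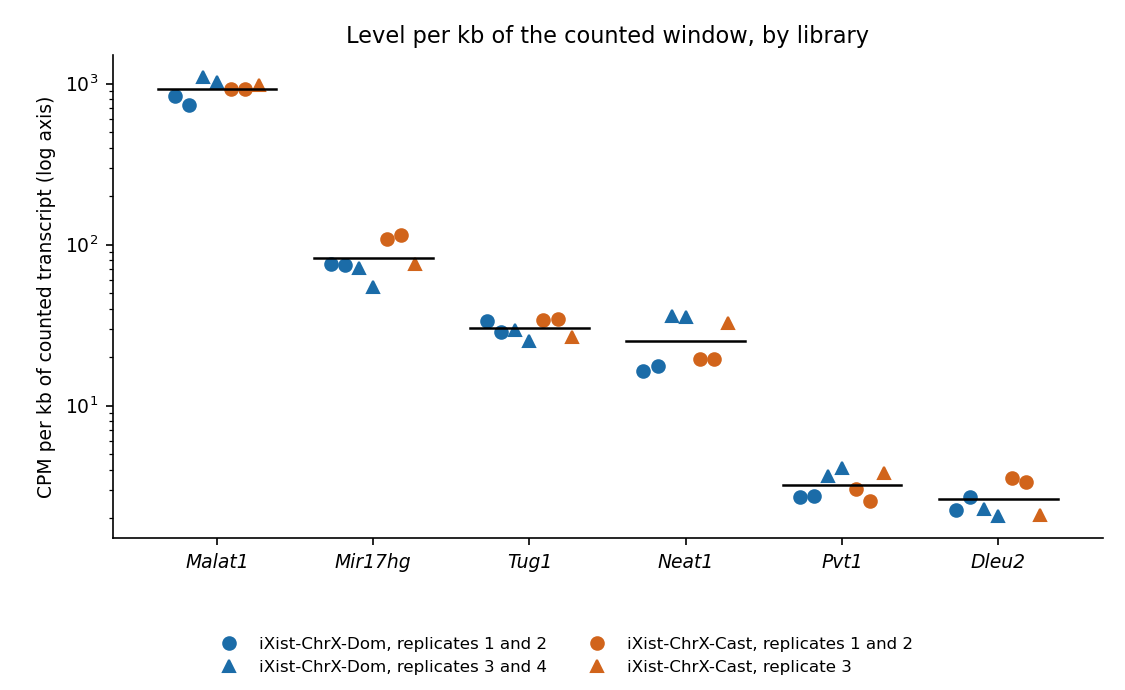
CPM per kb of the counted window on a log axis for each member (points are libraries, blue the Dom line and orange the Cast line, circles replicates 1 and 2, triangles replicates 3 and 4, bars the mean of 7 libraries). Malat1 lies between 733.6 and 1096, and the points of Tug1 and Neat1 overlap, as do those of Pvt1 and Dleu2.

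Whether the lines differed in these RNAs was asked of the total counts. At an adjusted p of 0.05 (edgeR quasi-likelihood test over all genes) 0 of 6 members differed between the Dom line and the Cast line, where 2.92% of all genes did (1.2% higher and 1.72% lower). Only Mir17hg, 1 of 6, had an unadjusted p under 0.05 in edgeR (17.4% of genes), and DESeq2 called that 1 member after adjustment (7.23% of genes). The CPM of the lines did not overlap for 1 of 6 members, again Mir17hg (16% of genes). In bulk RNA, fewer cells of a type and less RNA per cell cannot be told apart.

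Mir17hg was lower in the Dom line. Its level was 177, 174, 168 and 127.8 CPM in Dom-line replicates 1 to 4 and 253, 268 and 178 CPM in Cast-line replicates 1 to 3. All 4 values of the first line lay below all 3 of the second, though Cast-line replicate 3 was only just above. The log2 difference was -0.53 (SE 0.16, edgeR adjusted p = 0.111). It was past the threshold in DESeq2 (adjusted p = 0.049), with the sample set as a term (-0.45, edgeR adjusted p = 0.0059), with a block per replicate number (-0.41, edgeR adjusted p = 0.020), in replicates 1 and 2 alone (-0.57, edgeR adjusted p = 0.0039) and without Cast-line replicate 3 (-0.69, edgeR adjusted p = 0.016). Over all 17 alternatives the edgeR or DESeq2 adjusted p ranged from 0.00393 to 0.454, and the difference was negative in each. Within the second sample set it was -0.28.

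Dleu2, on the same chromosome, gave 179, 214, 181 and 163 CPM in the Dom line and 281, 268 and 167 CPM in the Cast line. Replicates 1 and 2 of the lines were apart, but Cast-line replicate 3 fell among Dom-line values. The log2 difference of -0.37 (SE 0.17, edgeR adjusted p = 0.297) became -0.57 without Cast-line replicate 3 (edgeR adjusted p = 0.019) and -0.48 in replicates 1 and 2 alone (edgeR adjusted p = 0.014). The range over alternatives was 0.0143 to 0.725. Within the second sample set it was 0.04.

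The other members showed log2 differences smaller than their spread. Malat1, a speckle RNA, had 5870, 5123, 7652 and 7108 CPM in the Dom line and 6450, 6449 and 6873 CPM in the Cast line, a log2 difference of -0.03 (SE 0.15). Tug1 had 304, 259, 267 and 226 CPM against 307, 313 and 240, a log2 difference of -0.12 (SE 0.13). In both genes Cast-line values fell within or next to Dom-line range. Neat1 and Pvt1 gave log2 differences of 0.15 (SE 0.30) and 0.07 (SE 0.18), and their libraries parted by sample set rather than by line. The 4 edgeR adjusted p-values were 0.710 to 0.942, and the signs for Malat1, Neat1 and Pvt1 turned under some alternatives.

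**Figure D3:**
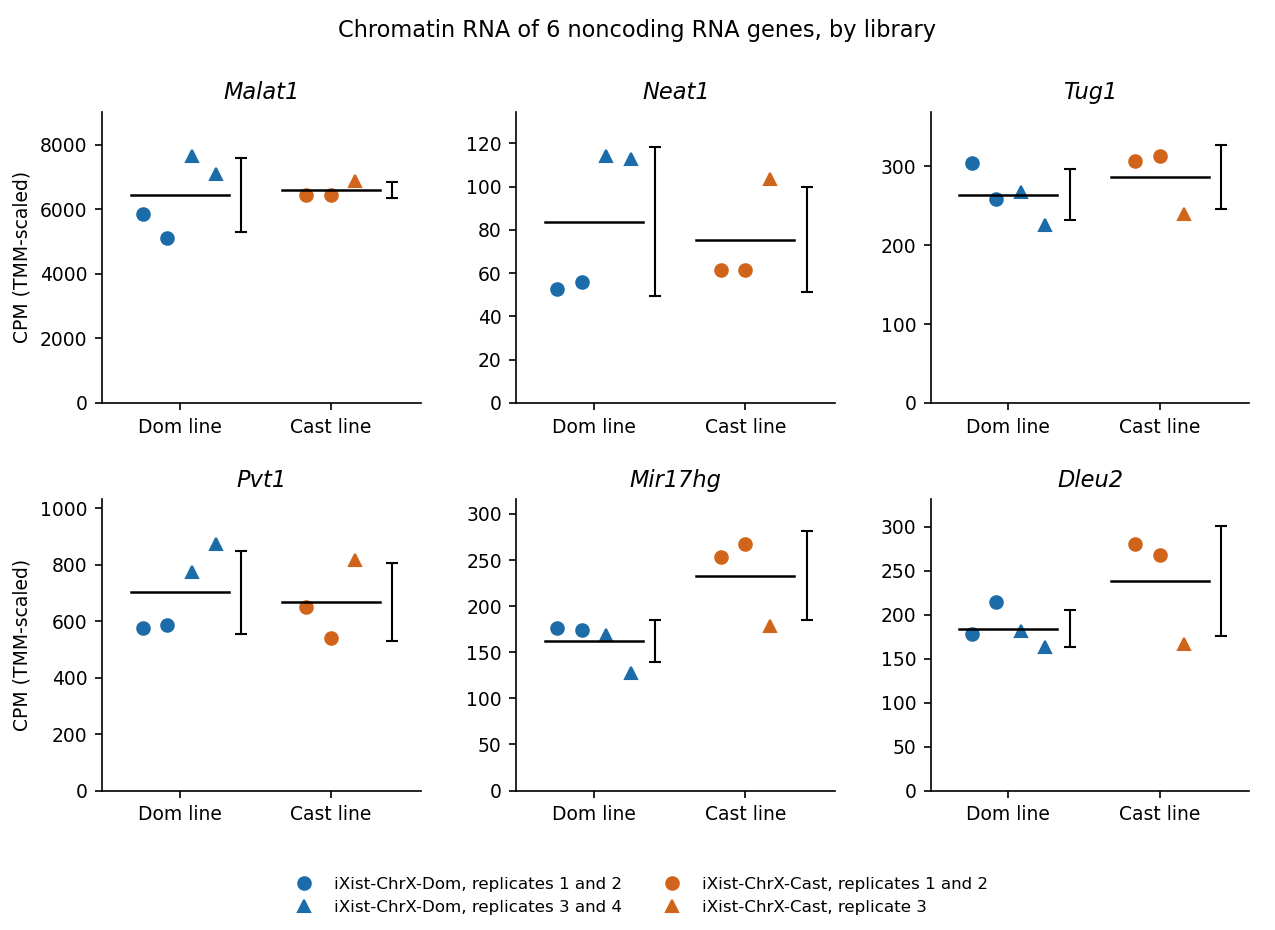
CPM (TMM-scaled, axes from 0) of each member in the 7 libraries by line; horizontal bars are line means, vertical bars the SD (n = 4 and 3), and circles and triangles the sample sets as before. For Neat1 the circles lie between 52.4 and 61.6 CPM and the triangles between 103 and 114.

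More members differed between the sample sets than between the lines, in fits whose terms were not alike. The line fit above had no term for the set. With that term it called 1 of 6 members (15.8% of genes), and the set fit without a line term called 2 (15.5%). With the line as a term, 5 of 6 members differed between the sets (edgeR, 30.3% of all genes), 2 higher (16.3% of genes) and 3 lower (14%) in replicates 3 and 4. All 6 had an unadjusted p under 0.05 (41.9% of genes). The CPM of the sets did not overlap for 3 of 6 members, Malat1, Neat1 and Pvt1 (29.4% of genes). What the sets are is not stated, and the part of culture, library preparation or induction time in them was not tested.

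Neat1, the paraspeckle scaffold, moved most. It stood at 52.4 and 55.8 CPM in Dom-line replicates 1 and 2 against 114 and 113 in replicates 3 and 4. In the Cast line it stood at 61.4 and 61.6 CPM in replicates 1 and 2 against 103 in replicate 3. Each library of the second set was above each of the first, in both lines. The fitted rise was 1.92-fold (log2 0.94, SE 0.09, edgeR adjusted p = 7.13e-06), and it was called in all 12 alternatives (adjusted p up to 0.00468). By allele, Cast-assigned Neat1 went from 10.1, 10.0, 10.9 and 11.98 CPM in the 4 libraries of the first set to 21.9, 19.8 and 19.5 CPM in the second, and the Dom-assigned fragments from 17.0, 19.1, 19.7 and 17.6 CPM to 37.8, 37.0 and 32.2 CPM. Neither allele overlapped between the sets.

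Pvt1 rose 1.40-fold, from 576, 586, 649 and 542 CPM in the first set to 774, 875 and 815 CPM in the second (log2 0.48, SE 0.09, edgeR adjusted p = 0.00134, called in all 12 alternatives with adjusted p up to 0.0472). Malat1 went from 5870, 5123, 6450 and 6449 CPM to 7652, 7108 and 6873 CPM (log2 0.29, SE 0.12, edgeR adjusted p = 0.0671). Malat1 values of the sets did not overlap, and 5 of 12 alternatives called it (adjusted p 0.0126 to 0.745). Within the Dom line its log2 difference was 0.43, within the Cast line 0.09.

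Mir17hg, Dleu2 and Tug1 were lower in the second set, with overlapping values. Mir17hg fell 1.29-fold (log2 -0.37, SE 0.10, edgeR adjusted p = 0.0134) and Dleu2 1.32-fold (log2 -0.40, SE 0.11, edgeR adjusted p = 0.0131). These calls depended on single libraries. Without Cast-line replicate 3 the log2 values were -0.24 and -0.19 (edgeR adjusted p = 0.159 and 0.237), and without Dom-line replicate 4 Mir17hg was at -0.30 (adjusted p = 0.074); over alternatives the adjusted p ranged from 0.00272 to 0.159 for Mir17hg and from 0.0037 to 0.237 for Dleu2. Tug1 also fell (log2 -0.26, SE 0.09, edgeR adjusted p = 0.0420), a call that was kept in 4 of 12 alternatives (0.0189 to 0.241). It was lost without Dom-line replicate 1 (-0.22, 0.145) or 4 (-0.22, 0.172) and without Cast-line replicate 1 (-0.25, 0.052), 2 (-0.25, 0.102) or 3 (-0.19, 0.241).

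Whether the set difference itself differed between the lines was tested by an interaction. edgeR called 0 of 6 members (0.0132% of genes), and 1 had an unadjusted p under 0.05 (10% of genes). That was Dleu2, whose set difference was -0.19 in the Dom line and -0.72 in the Cast line (log2 difference 0.53, SE 0.17, edgeR adjusted p = 0.361).

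Neat1 and Malat1 lie 39.6 kb apart on one strand, and the ratio of their counts within a library is free of library scaling. Neat1 counts amounted to 0.894%, 1.09%, 1.49% and 1.59% of Malat1 counts in Dom-line replicates 1 to 4 and 0.952%, 0.955% and 1.50% in Cast-line replicates 1 to 3. The ratio was higher in every library of the second set. Between the lines the mean log2 ratio differed by 0.15 (exact permutation test over 35 splits, two-sided, p = 0.6857, smallest possible 0.02857). Frmd8, the next gene beyond Neat1 at 5.50 kb, also rose between the sets (log2 0.56, edgeR adjusted p = 0.012).

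**Figure D4:**
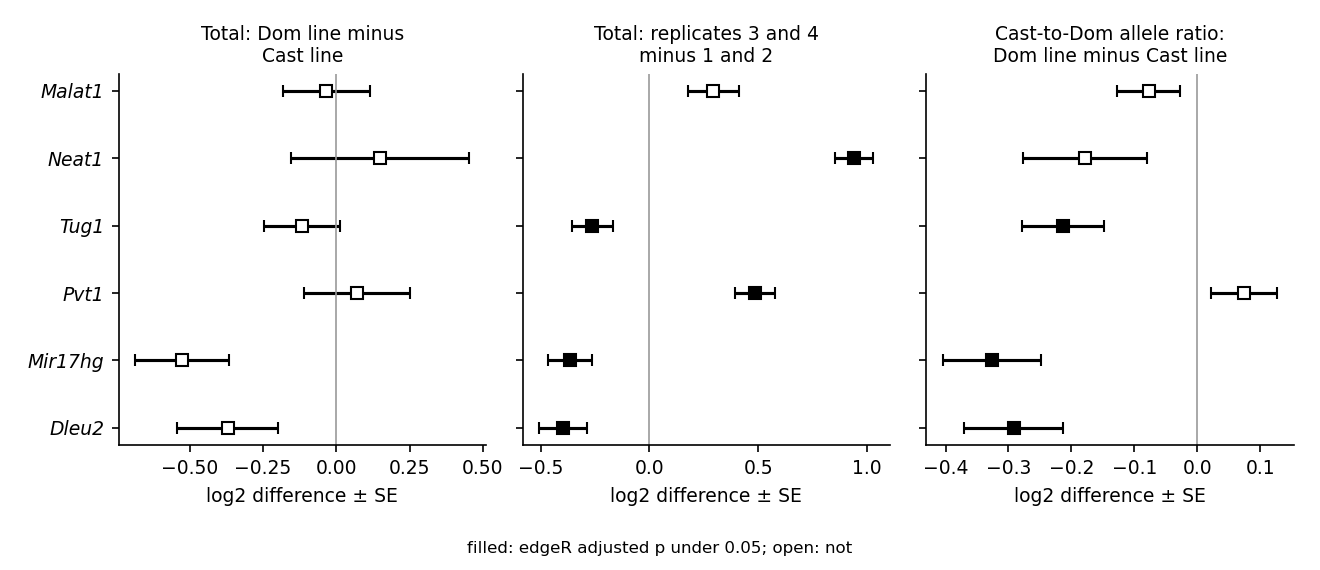
Log2 differences ± SE from edgeR for the 6 members: total counts by line (left), total counts by sample set (middle) and the ratio of Cast to Dom fragments by line (right); filled squares have an adjusted p under 0.05. No square is filled on the left, 5 are in the middle with Neat1 farthest at 0.94, and 3 are on the right, all below 0.

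The genes known to act with these RNAs were read from lists chosen with earlier results known. Between the lines edgeR called 2.92% of all genes. Of the tested genes it called 0 of 14 for paraspeckle proteins, 0 of 17 for nuclear speckle proteins and 0 of 16 for small RNA processing. At an unadjusted p under 0.05 there were 1, 0 and 2 (17.4% of genes), and DESeq2 called 0 of each (7.23%). Between the sets 1 paraspeckle gene was higher (Dazap1, log2 0.59) and 6 lower, among them Hnrnpk (-0.62) and Sfpq (-0.33), with a list median of -0.21 against 0.01 for all genes, of which 16.3% were higher and 14% lower. Of the speckle genes, which encode splicing factors, 0 were higher and 8 lower, among them Srsf2 (-0.56) and Sf3b1 (-0.42), with a median of -0.25. The processing genes held 2 that were higher, Drosha (0.32), the enzyme that cuts hairpins, and the helicase Ddx17 (0.43), and 0 lower.

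Other noncoding RNA genes varied in both directions. Of 22 tested, 1 was called between the lines (2.92% of all genes): Snhg11, higher in the Dom line (log2 0.66, edgeR adjusted p = 0.0349). In edgeR 6 had an unadjusted p under 0.05 (17.4% of genes), and DESeq2 called 4 (7.23%). Between the sets 4 were higher (H19, Meg3, Rmrp and Rpph1, log2 0.31 to 0.98) and 4 lower (Mirg, Dancr, Jpx and Dleu7, -1.57 to -0.39). Of all genes, 16.3% were higher and 14% lower between the sets. The fibroblast markers summed to 71.5 to 86.3 CPM in the first set and 72.0 to 95.8 in the second, with 3 higher, 1 lower and 6 not called of 10 tested. Some markers of other cell states were also called between the sets, to be read beside the same 16.3% and 14% of all genes. Of 9 pluripotency markers 2 were higher, Pou5f1 (log2 0.50) and Zfp42 (0.35), and 0 lower, with sums of 1407 to 1828 CPM in the first set and 1697 to 1771 in the second. Of 6 neural progenitor markers 3 were tested, with 0 higher and 2 lower, Pax6 (-0.97) and Nes (-0.67), and sums of 21.9 to 48.2 CPM against 16.5 to 25.1. Sox1, a defining neural marker, was at 0 in every library. Of 6 primitive endoderm markers 4 were tested, with Gata4 (0.78) and Gata6 (0.73) higher and Dab2 (-0.68) lower, and sums of 48.1 to 55.1 CPM against 37.6 to 40.3. The part of fibroblast RNA or of any of these cell states in the differences of members between the sets was not tested.

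The libraries also tell from which parental genome each RNA came. The Cast share, the percentage of allelic fragments assigned to Cast, was below 50% for genes as a whole. Chromosomes 1, 5, 8, 12 and 14, the last with Mir17hg and Dleu2, were not taken as balanced between the genomes. Over the other autosomes the median share was 46.4% to 46.9% per library. Members were therefore tested against the other genes (edgeR on the allele counts with TMM scaling). Of 6 members 5 departed from them (64.8% of genes did), 2 towards Cast (33.9%) and 3 towards Dom (30.9%). With equal library sizes in place of that scaling all genes shifted by -0.14 on the log2 scale, and the direction of these 5 was kept.

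Neat1 and Malat1 came more from the Dom genome. Neat1 had Cast shares of 37.4%, 34.3%, 36.7% and 34.8% in the Dom line and 35.6%, 40.5% and 37.7% in the Cast line, a mean of 36.7% ± 2.10 (SD, n = 7) over 435 to 1119 allelic fragments. Malat1 had 43.2%, 42.1%, 42.9% and 41.7%, and 44.0%, 43.6% and 41.5%, a mean of 42.7% ± 0.977 (SD, n = 7) over 36798 to 55358 fragments. Every library of both genes was below the median of genes within 10 Mb, 44.7% to 47.7%. The log2 ratio of Cast to Dom against other genes was -0.63 (SE 0.05, edgeR adjusted p = 2.29e-10) for Neat1 and -0.28 (SE 0.03, 3.20e-09) for Malat1. Frmd8, beside Neat1, had a share of 50.4% ± 1.56 (SD, n = 4) in the Dom line.

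Pvt1 and Dleu2 came more from the Cast genome. Pvt1 had 54.8%, 54.9%, 56.6% and 55.5% in the Dom line and 51.4%, 53.5% and 55.3% in the Cast line, all above its regional medians, which averaged 44.7% and 44.5%. Its log2 ratio was 0.40 (SE 0.03, edgeR adjusted p = 1.35e-11), and that of Dleu2 was also 0.40 (SE 0.04, 1.14e-08). Mir17hg lay on the Dom side at -0.22 (SE 0.04, 3.98e-05), with a mean share of 43.3% ± 3.03 (SD, n = 7). These ratios are against all genes and not against the region. Regional medians in the Dom and Cast lines averaged 47.4% and 52.7% around Dleu2, and 46.7% and 52.0% around Mir17hg. Tug1 was near the other genes at 0.06 (SE 0.03, edgeR adjusted p = 0.0982), and with equal library sizes at -0.08 (0.027), the opposite direction.

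The fibroblast markers had low Cast shares: 8 of 9 with enough allelic fragments were called lower (30.9% of genes). The pooled share of the 9 was 21.4% to 27.2% in the Dom line and 21.5% to 24.4% in the Cast line on 554 to 949 fragments. Col1a2, a collagen, stood at 8.93% ± 5.04 (SD, n = 7). The part of fibroblast RNA in the shares of Neat1, Malat1 and Mir17hg was not tested.

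The Cast share was then compared between the lines. Of 6 members 3 differed (18.4% of genes), of which 0 had a higher (9.1% of genes) and 3 a lower (9.28%) Cast share in the Dom line. The shares of these 3 did not overlap between the lines (23.6% of genes).

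Mir17hg had Cast shares of 39.7%, 42.6%, 40.2% and 42.7% in the Dom line and 47.0%, 47.5% and 43.7% in the Cast line (41.3% ± 1.57, n = 4, and 46.1% ± 2.06, n = 3, SD), on 1357 to 2802 allelic fragments. The 95% Wilson interval of a library, which covers counting error only, was 37.6% to 41.9% in Dom-line replicate 1, for example. The log2 ratio differed by -0.33 (SE 0.08, edgeR adjusted p = 0.00324, 8.82e-05 to 0.111 over 14 alternatives). Cast-assigned fragments were 1.51-fold and Dom-assigned fragments 1.23-fold higher in the Cast line. In Dom-line replicate 2, 65.3% of Mir17hg fragments could be assigned to a genome, against 50.1% to 54.2% in the other libraries. Its 48.5 Cast-assigned and 65.4 Dom-assigned CPM were the highest of the Dom line and enter these folds.

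Dleu2 had 53.3%, 52.1%, 51.5% and 51.9% against 58.4%, 57.4% and 53.4% (52.2% ± 0.772 and 56.4% ± 2.61, SD). Here too Cast-line replicate 3 lay nearest to the other line, and within the second sample set the difference was -1.72 percentage points against -5.17 within the first. The log2 ratio differed by -0.29 (SE 0.08, edgeR adjusted p = 0.00936, 0.000107 to 0.158 over alternatives). Tug1 had 46.8%, 47.7%, 46.8% and 47.0% against 49.6%, 50.3% and 50.2%, a difference of -2.71 points in the first set and -3.28 in the second. Its log2 ratio differed by -0.21 (SE 0.06, edgeR adjusted p = 0.0219, 0.0127 to 0.249 over alternatives).

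These 3 calls depended on the method and on single libraries. limma on the log2 ratios called 0 of 6 members (14.8% of genes) and gave the same 3 an unadjusted p under 0.05 (23.8% of genes), with adjusted p of 0.111, 0.158 and 0.125 for Mir17hg, Dleu2 and Tug1. Without Cast-line replicate 2 all 3 calls were lost (log2 -0.23, -0.21 and -0.16, edgeR adjusted p = 0.095, 0.155 and 0.249). Dleu2 was also lost without Cast-line replicate 1 (-0.22, 0.097), and Tug1 without that replicate (-0.21, 0.081) or Dom-line replicate 1 (-0.20, 0.067), 3 (-0.20, 0.065) or 4 (-0.20, 0.065). In all, Mir17hg was called in 12 of 14 alternatives, Dleu2 in 10 and Tug1 in 5. Without Dom-line replicates 3 and 4 the edgeR adjusted p was 0.108 for Dleu2 and 0.153 for Tug1, and that of Tug1 was 0.075 with equal library sizes and 0.083 in replicates 1 and 2 alone. Malat1, Neat1 and Pvt1 differed by -0.08, -0.18 and 0.07 and were not called. Without Cast-line replicate 3 Malat1 was at -0.14 (0.0096).

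Around the 3 members the regional median of the Cast share was lower in the Dom line too. The median Cast share within 10 Mb was 46.7% ± 0.909 in the Dom line and 52.0% ± 3.41 in the Cast line around Mir17hg, 47.4% ± 0.545 and 52.7% ± 3.04 around Dleu2, and 44.3% ± 1.07 and 47.7% ± 0.527 around Tug1 (SD over libraries, n = 4 and 3). The median log2 difference of the ratio was -0.34, -0.32 and -0.22 in these windows. Around Malat1 and Neat1 it was -0.01. On chromosome 14 as a whole 154 of 437 genes were called for the ratio (18.4% of all genes). That chromosome had a median Cast share of 54.1% and 54.2% in Cast-line replicates 1 and 2 and 49.1% in replicate 3. In the Dom line its median was 47.2% to 47.8%. In total counts the median log2 difference between the lines within 10 Mb was -0.05 around Mir17hg (41 genes), whose own value was -0.53, -0.16 around Dleu2 and 0.11 around Tug1. Over the whole of chromosome 14 the median was -0.17 (525 genes). Whether the members differed from their regions was not tested.

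**Figure D5:**
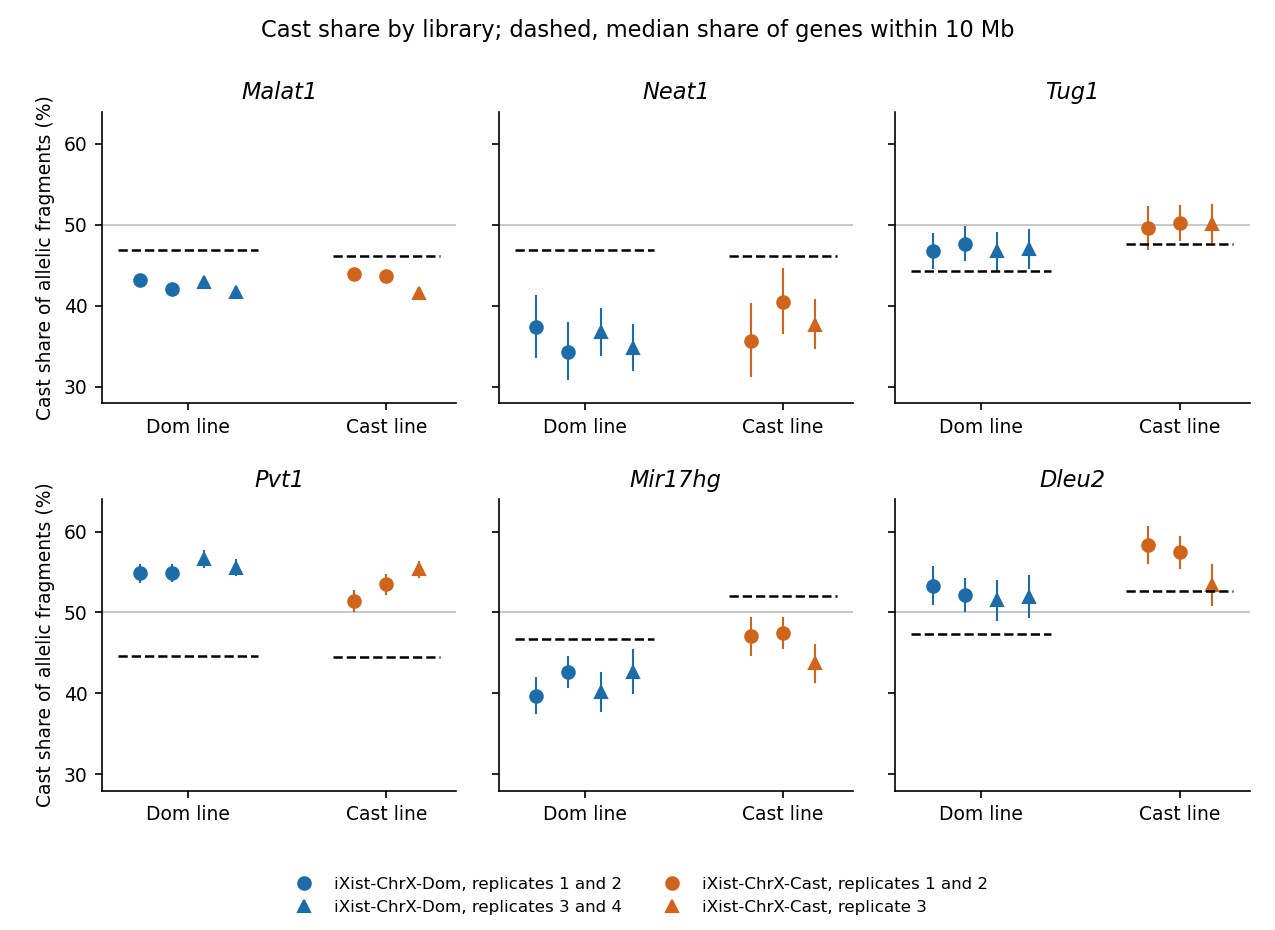
Cast share (%) of allelic fragments for each member and library with 95% Wilson intervals (vertical lines) and the mean over libraries of the median share of genes within 10 Mb (dashed); colours and symbols as before, the grey line is 50%. Malat1 and Neat1 lie below the dashed lines and Pvt1 above them, while Mir17hg, Dleu2 and Tug1 shift between the lines together with theirs.

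Tug1 shares its start region with Morc2a, a gene of a chromatin-silencing protein that is transcribed the other way and begins 679 bp from the counted start of Tug1. The RefSeq promoter of Tug1 (GRCm38.p6, chr11:3648765-3649064, minus strand), shown because both genes start beside it, holds 37 CG dinucleotides, in capitals. As many are held by 5.58% of the 32851 promoters of this length, and its GC content is 71.3%. TATAAA was searched on both strands, is in 13.6% of promoters and is not in this window.
Tug1 promoter: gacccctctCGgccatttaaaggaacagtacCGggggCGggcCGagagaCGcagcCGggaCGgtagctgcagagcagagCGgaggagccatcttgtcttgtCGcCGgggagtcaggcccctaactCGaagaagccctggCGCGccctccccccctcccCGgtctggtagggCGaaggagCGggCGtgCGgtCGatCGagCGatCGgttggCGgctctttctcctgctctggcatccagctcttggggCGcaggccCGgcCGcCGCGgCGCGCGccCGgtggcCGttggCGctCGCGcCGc
The values of Morc2a were close to those of Tug1 between the sets and in the allelic ratio. Morc2a differed by 0.03 between the lines (edgeR adjusted p = 0.931), by -0.25 between the sets (0.0327) and by -0.21 in the allelic ratio between the lines (0.025). Its Cast share was 46.9% ± 0.958 (SD, n = 4) in the Dom line and 49.9% ± 1.04 (n = 3) in the Cast line.

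Neighbours of the other members did not all follow them. Myc, 47.6 kb before Pvt1, was low, at a mean of 8.37 and 11.1 CPM in the lines, and differed by -0.13 between the sets (edgeR adjusted p = 0.557), where Pvt1 rose. Gpc5 and Gpc6, heparan sulfate proteoglycan genes downstream of Mir17hg, had Cast shares of 26.6% ± 6.28 and 22.4% ± 3.28 in the Dom line (SD, n = 4), far below that of Mir17hg. Beside Dleu2, Spryd7 fell between the sets (log2 -0.51, edgeR adjusted p = 0.00378) and had a lower Cast share in the Dom line (53.5% ± 3.07 against 61.4% ± 4.33, SD, edgeR adjusted p = 0.0328).

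Genes whose log2 CPM followed a member most closely over the 7 libraries were taken by Pearson r among 13870 genes, as a description, since the libraries share the sample sets. For Neat1 these were Gm9833 (r = 0.996), Sfmbt2 (0.993) and Mta3 (0.991), and for Pvt1 Nckap5l (0.995), Gpatch2l (0.994) and Capzb (0.992). For Mir17hg they were Nfyb (0.999), Zbtb33 (0.996) and Dis3 (0.991), for Dleu2 Naa30 (0.992), Wdr12 (0.991) and Zfx (0.991), for Tug1 Exph5 (0.984), Zfp62 (0.982) and Ap3m1 (0.981), and for Malat1 Pnp2 (0.987), Fsip1 (0.982) and Gfm2 (0.977). Sfmbt2, a Polycomb group gene, ranged from 223 to 660 CPM. No other member was among the 3 closest genes of a member.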

How the data were processed

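Per the paper and labels, the authors discarded reads of ribosomal RNA (Bowtie2 2.3.2), mapped the others with STAR 2.4.2a to an mm10 genome N-masked at strain SNPs, split them by parental genome with SNPsplit, and counted fragments over whole transcripts, strand-specifically, with featureCounts 1.5.2. The deposited files hold raw counts per gene, in total and by genome; the deposited ratio tables hold the Xi fraction of X-linked genes and served here to identify genome 1 as Cast (399 and 246 genes). Members and lists were chosen with earlier results of these data known. edgeR 4.0.16 (R 4.3.3; filterByExpr, TMM, quasi-likelihood test, Benjamini-Hochberg over all genes, threshold 0.05) tested 15186 genes in total and, with at least 10 allelic fragments in every library and 1 term per library, 12445 by allele. CPM is TMM-scaled; CPM per kb divides by counted length. DESeq2 1.42.0 and limma 3.58.1 were alternatives, besides other scalings, filters, sample set, replicate block and leave-one-out fits. Leaving out Dom-line replicates 3 and 4 together, and fitting the sets in the Cast line alone, were chosen after seeing the data. Deviations of same-numbered libraries from their line means correlated at r = 0.36, 0.314 and 0.513 across 15186 genes. The reported fits did not pair libraries by number, and the replicate block was only an alternative. A pairing by number is not given by the labels. Differently numbered libraries of one sample set correlated more (Dom-line replicates 1, 2 and 4 with Cast-line replicates 2, 1 and 3, at 0.442, 0.358 and 0.553). On simulated data edgeR found 68.0% of 197 genes changed by a log2 of 1 between the lines (7.59% of calls false) and DESeq2 77.2% (17.8% false). For the allelic ratio between the lines edgeR found 77.5% (4.32% false) and limma 57.5% (6.5% false) of 200. These simulated lines had no difference between sample sets and, by allele, the same Cast share for all unchanged genes. The rates may therefore not hold for the real libraries. Named genes were the members, the 2 nearest tested genes on each side, the 3 most alike by r, and called genes of the lists. Exact tests and figures used scipy 1.17.1 and matplotlib 3.10.9 under Python 3.11.15. RefSeq promoters were matched for 4 of the 6 members. One neighbouring gene is not reported here.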

Additional observations from a re-analysis of the deposited data

Results flagged for a closer look

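Of 18 values screened in the Dom line (log2 CPM, Cast share and share of allelic fragments of the 6 members), 1 had a library far from the other 3: the log2 CPM of Mir17hg, where replicate 4 lay at 127.8 CPM and replicates 1 to 3 at 168 to 177 CPM. The gap took up 0.855 of the range of the group. Chance flags about 1 in 20 such groups. Without this replicate the difference of Mir17hg between the lines kept its sign and was not past the threshold.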

How the results depend on the processing

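Of 330 values of single members under alternatives, 272 kept their direction and their side of the threshold. Between the lines, edgeR called 443 genes in total counts, against 1098 in DESeq2, 1685 in replicates 1 and 2 alone, 2398 with the sample set as a term, 1794 with the replicate block (which called 1 member, Mir17hg, and changed no other call of a member), 58 without Dom-line replicates 3 and 4, and 18 (without Cast-line replicate 2) to 1206 (without Cast-line replicate 3) with single libraries left out. Members called numbered 0 in the fit reported and 1, 2, 1 and 1 in the first 4 of these, and 0 to 2 with single libraries left out. The log2 difference of Neat1 was -0.18 in replicates 1 and 2 alone, -0.054 with the set term, -0.073 with the block and -0.48 without Dom-line replicates 3 and 4; that of Pvt1 was -0.031, -0.015, -0.045 and -0.21. With single libraries left out Malat1 ranged from -0.13 to 0.061, Neat1 from -0.036 to 0.45 and Pvt1 from -0.059 to 0.24. For the allelic ratio between the lines, members and genes called were 3 and 2288 in the fit reported, 0 and 1845 in limma, 1 and 2033 without Dom-line replicates 3 and 4, and 0 to 4 and 1843 to 2405 with single libraries left out; members called were 2 with equal library sizes and in replicates 1 and 2 alone. Tug1 turned to -0.083 between the alleles with equal library sizes. Between the sets 4606 genes were called, against 2739 in the Dom line alone, 2045 in the Cast line alone and 2355 with no term for the line, and 2518 to 4501 with single libraries left out; members called were 5, against 6 in DESeq2 and with no scaling factor, 4 in the Cast line alone, 3 in the Dom line alone, 2 with no line term and 3 to 5. The cause of these changes was not tested, other than that fewer libraries enter some fits. Without division by length the log2 steps in the order were -0.54 from Mir17hg to Tug1, 1.84 from Tug1 to Neat1, -3.16 from Neat1 to Pvt1 and 1.74 from Pvt1 to Dleu2. From allelic fragments alone Tug1 stood at -0.21 to Neat1 and Pvt1 at 0.82 to Dleu2. With single libraries left out the steps Malat1 to Mir17hg, Mir17hg to Tug1 and Neat1 to Pvt1 were 3.42 to 3.62, 1.36 to 1.46 and 2.85 to 2.96. Their exact adjusted p was then 0.0521 each, not past the threshold. That is the smallest value these steps could reach with a library fewer, so a pass was not possible. The Cast share of Neat1 rests on 435 to 1119 allelic fragments a library.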
